A study of Mus musculus with 10 samples.

Results

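The genes described here write, keep and erase DNA methylation or form the core of Polycomb repressive complex 2 (PRC2) in mouse brain tumours and neurospheres. They were chosen by name: the DNA methyltransferases Dnmt1, Dnmt3a and Dnmt3b, the methylation maintenance factor Uhrf1, the methylcytosine oxidases Tet1, Tet2 and Tet3, and the PRC2 subunits Ezh2, Suz12 and Eed. Of these 10 genes, 9 had a row of their own on the array, 1 row each, among 14807 named genes and 23238 rows in all. Tet1 was not analysed here.

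RNA was measured in 10 samples on 1-colour Affymetrix mouse exon arrays, and every value below is a log2 expression level or a difference of such levels. All mice and cultures carried floxed alleles of p53 and Rb on both chromosomes (p53/Rb Flox-Hom) in a mixed background of C57, FVB and mainly 129 Ola, including the culture that received no Cre. The tumours comprised 3 primitive neuroectodermal tumours (PNET), which followed injection of adenovirus with Cre recombinase (AdCre) into the ventricles, and 4 oligo-astrocytomas. Of the oligo-astrocytomas, 1 arose after the same injection (AdCre-induced, number 44) and 3 grew from grafted spheres that had received AdCre in culture (numbers 4, 5 and 6). The cultures were neurospheres, which are floating colonies of neural stem and progenitor cells, from the subventricular zone at passage 3: 2 that had received AdCre and 1 that had received a control adenovirus with GFP (AdGFP). The sources give no age or sex, nor the genotype of the graft hosts, nor whether samples of a group came from separate animals or cultures, so each p-value reflects the spread among these samples only. AdCre deletes the floxed alleles only in the cells it reaches, and tumour samples can hold host cells beside tumour cells.

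DNA methylation is copied at each cell division by Dnmt1, which Uhrf1 brings to newly replicated DNA by binding hemimethylated sites. Dnmt3a and Dnmt3b place methyl groups on unmethylated DNA, and Tet enzymes oxidise methylcytosine on the way to its removal. PRC2 methylates lysine 27 of histone H3, a mark of silenced developmental genes such as the Hox clusters: Ezh2 is its catalytic subunit, Suz12 its scaffold, and Eed reads the mark and stimulates the enzyme. In neural progenitors both systems are known to hold lineage genes silent, and Dnmt1, Uhrf1 and Ezh2 are known as genes that cells make when they enter S phase under E2F factors, which the Rb protein restrains.

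The promoters of Uhrf1, Dnmt1 and Suz12, the genes that differed between PNET and oligo-astrocytoma, and of Dnmt3b, which differed between tumours and spheres, are shown because E2F factors bind near the starts of many replication genes. Each window runs from 250 bases before to 50 bases after an annotated start in RefSeq on build GRCm38.p6, 5′ to 3′ on the gene's own strand. Capitals mark the E2F-type strings TTTCGCGC, TTTGGCGC, TTTCCCGC and TTTGCCGC and the GC box GGGCGG on either strand, and no E2F-type string overlapped a GC box in these 4 windows. All 10 genes had a window, and for genes with several the one richest in CpG was used. Dnmt1 had 3 windows and Uhrf1 had 2, so the window shown need not belong to the start that these samples mainly used.
Uhrf1, chr17:56304063-56304362, plus strand: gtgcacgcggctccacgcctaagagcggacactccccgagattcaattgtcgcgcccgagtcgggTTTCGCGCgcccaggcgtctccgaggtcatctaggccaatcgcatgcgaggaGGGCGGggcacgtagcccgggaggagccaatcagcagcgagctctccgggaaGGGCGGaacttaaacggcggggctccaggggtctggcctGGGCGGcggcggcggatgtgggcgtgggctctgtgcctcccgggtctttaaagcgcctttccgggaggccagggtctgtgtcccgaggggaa
Dnmt1, chr9:20952574-20952873, minus strand: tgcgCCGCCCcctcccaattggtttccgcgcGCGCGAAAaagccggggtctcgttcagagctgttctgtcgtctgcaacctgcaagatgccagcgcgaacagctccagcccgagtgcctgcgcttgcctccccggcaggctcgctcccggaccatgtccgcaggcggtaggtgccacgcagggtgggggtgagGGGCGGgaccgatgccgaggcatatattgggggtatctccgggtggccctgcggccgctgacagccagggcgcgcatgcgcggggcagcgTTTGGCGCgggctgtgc
Suz12, chr11:79992856-79993155, plus strand: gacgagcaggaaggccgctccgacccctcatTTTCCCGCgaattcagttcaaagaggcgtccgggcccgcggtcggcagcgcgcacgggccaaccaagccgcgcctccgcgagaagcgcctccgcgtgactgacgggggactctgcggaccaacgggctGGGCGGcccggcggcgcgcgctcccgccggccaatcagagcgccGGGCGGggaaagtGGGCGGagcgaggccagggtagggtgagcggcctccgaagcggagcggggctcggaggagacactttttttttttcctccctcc
Dnmt3b, chr2:153649199-153649498, plus strand: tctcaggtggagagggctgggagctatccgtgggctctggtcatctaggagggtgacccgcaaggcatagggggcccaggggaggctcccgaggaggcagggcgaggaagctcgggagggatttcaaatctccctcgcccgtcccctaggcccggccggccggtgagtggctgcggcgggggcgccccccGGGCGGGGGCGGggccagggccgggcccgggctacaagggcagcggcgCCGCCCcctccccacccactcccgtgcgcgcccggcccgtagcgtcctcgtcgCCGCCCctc
The windows held 33 CpG in Uhrf1, 33 in Dnmt1, 41 in Suz12 and 30 in Dnmt3b, against a median of 8.0 over the 27025 genes with a window. Counting the first base at the annotated start of the window as 1, TTTCGCGC began at position -185 in Uhrf1. In Dnmt1 it stood on the opposite strand, at positions -219 to -212, and TTTGGCGC began at 34. In Suz12, TTTCCCGC began at -219, and Ezh2 had TTTGGCGC at 4, while the Dnmt3b window held GC boxes and none of the E2F-type strings. At least 1 E2F-type string stood in 4 of the 10 windows, in 14 of 35 windows (40.0%) of a list of DNA replication and E2F target genes, and in 2.4% of all windows. A GC box stood in 8 of the 10, in 68.6% of the replication genes and in 37.3% of all windows. These are matches of letters, not measured binding. Every string searched holds a CpG. The median CpG count was 32.0 in the windows of the 10 genes and 24.0 in those of the replication genes, against 8.0 over all windows. The shares were not matched for CpG, so they do not show an excess of these strings beyond CpG content.

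The arrays differed in width. The upper quartile was 7.22 to 7.43 in PNET and 7.39 to 7.49 in oligo-astrocytomas, against 7.95 and 8.0 in AdCre spheres and 7.90 in the AdGFP sphere, while medians stayed between 5.87 and 6.06. The median named gene was lower in tumours than in AdCre spheres, with differences of -0.35 for oligo-astrocytoma and -0.36 for PNET, and differences between tumours and spheres are read beside those values and beside a second scaling that gives all arrays 1 distribution (quantile normalization). Rb1 itself read 7.48, 7.48 and 7.64 in PNET, 6.36 to 7.24 in oligo-astrocytomas and 6.65 and 6.34 in AdCre spheres, against 8.49 in the AdGFP sphere, so all 9 samples labelled with AdCre were lower than the sample without it. Which of its probes lie in the floxed part is not known here. Photoreceptor and pineal markers averaged 8.30 to 8.97 in PNET against 4.16 to 4.33 in oligo-astrocytomas, and oligodendrocyte lineage markers 5.65 to 5.80 in PNET against 8.82 to 10.04 in oligo-astrocytomas. In whole tissue and pellets, a lower share of cells that make a transcript and less transcript per cell cannot be told apart.

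The maintenance pair stood highest in PNET. Uhrf1 read 10.57, 10.45 and 10.07 in PNET, 9.25, 9.33, 9.35 and 9.46 in oligo-astrocytomas, 9.67 and 9.90 in AdCre spheres and 9.72 in the AdGFP sphere. The PNET did not overlap any other sample, the oligo-astrocytomas lay below all spheres, and the AdGFP sphere lay between both AdCre spheres. Dnmt1 read 9.59, 9.68 and 9.84 in PNET, 9.21, 8.92, 9.24 and 9.20 in oligo-astrocytomas, 9.20 and 9.49 in AdCre spheres and 9.32 in the AdGFP sphere. Here too every PNET lay above every other sample, but oligo-astrocytomas and spheres overlapped.

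The de novo methyltransferases followed other patterns. Dnmt3b read 6.08, 6.10 and 5.86 in PNET, 6.19, 6.30, 6.42 and 5.98 in oligo-astrocytomas, 5.57 and 5.33 in AdCre spheres and 5.20 in the AdGFP sphere. Both kinds of tumour overlapped each other and lay above all 3 spheres. The sphere values lay under the medians of their arrays (6.05 and 6.06 for AdCre, 5.98 for AdGFP). In tumours, PNET 3 at 5.86 lay under the lowest PNET median (5.87). Grafted tumour 6 at 5.98 lay within the range of the oligo-astrocytoma medians (5.93 to 6.02). Whether the values near or under these medians are above background is not known here. Dnmt3a read 8.79, 8.89 and 8.95 in PNET, 8.67 and 8.69 in AdCre spheres and 8.60 in the AdGFP sphere. In oligo-astrocytomas Dnmt3a read 7.86 in the AdCre-induced tumour and 7.81 and 7.93 in grafted tumours 4 and 5, but 9.50 in grafted tumour 6. That tumour was the highest of all 10 samples and the other 3 oligo-astrocytomas were the lowest, so the group's mean of 8.28 ± 0.81 (SD, n = 4) described none of its samples; without tumour 6 it was 7.87 ± 0.06 (SD, n = 3).

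Of the Tet oxidases, 2 were measured. Tet2 read 8.56, 8.18 and 8.10 in PNET, 8.41, 7.50, 8.51 and 7.82 in oligo-astrocytomas, 7.97 and 7.59 in AdCre spheres and 7.63 in the AdGFP sphere. The oligo-astrocytomas spanned nearly the whole range of the other groups. Tet3 read 7.97, 7.96 and 8.31 in PNET, 7.58, 7.74, 7.90 and 8.05 in oligo-astrocytomas, 8.43 and 8.23 in AdCre spheres and 8.33 in the AdGFP sphere. Spheres stood highest for Tet3, above all oligo-astrocytomas, and PNET overlapped both.

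The 3 PRC2 core subunits did not share 1 order of groups. Suz12 read 9.42, 9.82 and 9.63 in PNET, 8.96, 8.66, 8.71 and 8.59 in oligo-astrocytomas, 9.28 and 9.45 in AdCre spheres and 9.01 in the AdGFP sphere. The oligo-astrocytomas were the 4 lowest samples, with no overlap with any other group, and PNET overlapped the AdCre spheres. Eed followed the same order of means, with 7.69, 8.25 and 8.59 in PNET, 6.84, 7.26, 7.69 and 7.52 in oligo-astrocytomas, 7.76 and 7.88 in AdCre spheres and 7.65 in the AdGFP sphere, but PNET 1 and grafted tumour 5 met at 7.69. Ezh2 read 9.83, 9.63 and 10.30 in PNET, 9.43, 9.54, 9.98 and 9.52 in oligo-astrocytomas, 9.31 and 9.34 in AdCre spheres and 8.92 in the AdGFP sphere. For Ezh2 the tumours overlapped each other and all 7 lay above the 3 spheres, with the AdGFP sphere lowest. No gene spanned 2 log2 units over the 10 samples (Eed came nearest with 1.75), so no genes are named for a like pattern.

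**Figure D1:**
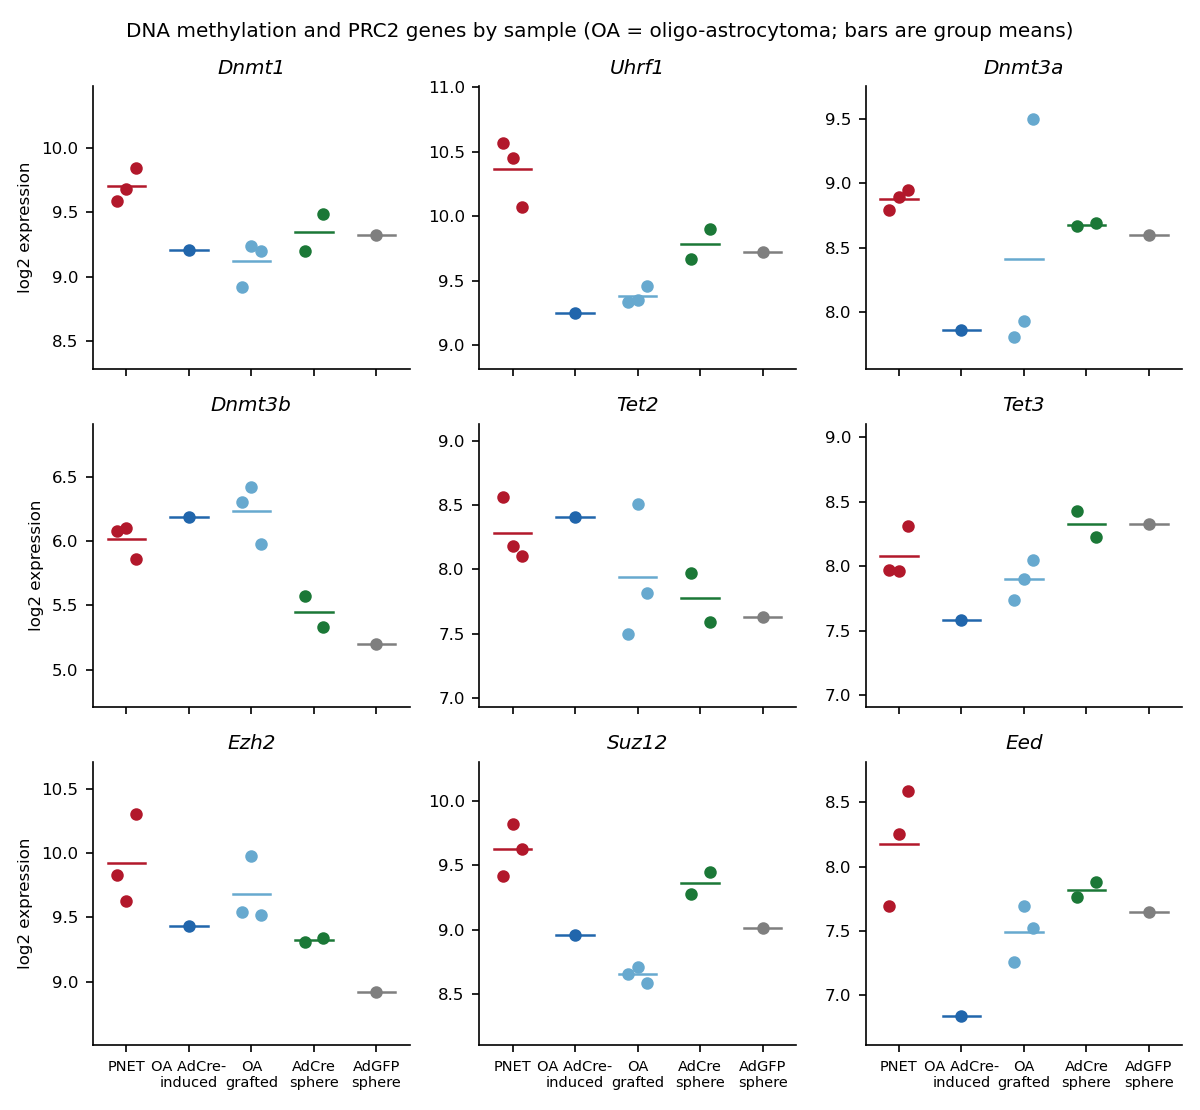
Log2 expression of the 9 measured genes (y axis, each panel spanning the same number of log2 units) in PNET, AdCre-induced oligo-astrocytoma, grafted oligo-astrocytoma, AdCre spheres and the AdGFP sphere, 1 point per sample, with the group mean as a bar. Uhrf1 and Dnmt1 were highest in the 3 PNET, Suz12 was lowest in the 4 oligo-astrocytomas, Dnmt3b was lowest in the 3 spheres, and Dnmt3a in 1 grafted tumour stood at 9.50, far from the other 3 oligo-astrocytomas.

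The first comparison sets the embryonal tumour against the glioma. All PNET followed injection and all oligo-astrocytomas but the AdCre-induced one grew from grafts. Tumour type and derivation are thus nearly tied and cannot be told apart here. Uhrf1 was higher in PNET than in oligo-astrocytoma by 1.01 ± 0.17 (SE), or 2.02-fold, with means of 10.36 ± 0.26 in PNET (SD, n = 3) and 9.35 ± 0.09 in oligo-astrocytoma (SD, n = 4). Suz12 was higher by 0.90 ± 0.16, or 1.86-fold, with means of 9.62 ± 0.20 in PNET and 8.73 ± 0.16 in oligo-astrocytoma. Dnmt1 was higher by 0.56 ± 0.16, or 1.47-fold, with means of 9.70 ± 0.13 in PNET and 9.14 ± 0.15 in oligo-astrocytoma. These 3 of 9 genes passed limma's test at an adjusted p of 0.05 over all 23238 rows, with 0.0045 for Uhrf1, 0.0075 for Suz12 and 0.0487 for Dnmt1. They were also the 3 whose groups did not overlap. Over all rows 12.7% passed, 5.53% as higher and 7.20% as lower, and without overlap 10.6% were higher and 12.8% lower.

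The other 6 genes did not pass. Eed differed by 0.85 ± 0.26 (adjusted p 0.0672), Ezh2 by 0.30 ± 0.21 with a 95% interval of -0.16 to 0.77, Tet3 by 0.26 ± 0.17, Tet2 by 0.22 ± 0.27 and Dnmt3b by -0.21 ± 0.16. Dnmt3a differed by 0.60 ± 0.38 (adjusted p 0.379) over all oligo-astrocytomas. Without grafted tumour 6 the difference was 1.01 ± 0.15 and passed (adjusted p 0.0047), and PNET then lay above all 3 remaining oligo-astrocytomas. Leaving out tumour 6, the highest oligo-astrocytoma for Dnmt3a, necessarily raised the difference and narrowed the group's spread. That fit was singled out after the values were seen, so its p-value is no independent test. The median of the 9 differences was 0.56, beside -0.01 over all named genes.

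Uhrf1 and Suz12 passed in each of the 7 fits that left out 1 tumour, with adjusted p from 0.00601 to 0.0216 for Uhrf1 and from 0.00891 to 0.034 for Suz12. Against the grafted oligo-astrocytomas alone Uhrf1 differed by 0.98 (adjusted p 0.0126) and Suz12 by 0.97 (adjusted p 0.00891), and against the single AdCre-induced one, which shares its derivation with PNET, by 1.11 (adjusted p 0.0505) and 0.66 (adjusted p 0.173). Dnmt1 passed in none of the 7 fits, with adjusted p from 0.0647 without PNET 1 to 0.166 without PNET 3.

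Beside the maintenance pair, the list of DNA methylation partners and readers had 5 of 34 measured genes higher and 1 lower, with a median difference of 0.14, while over all named genes 7.06% were higher and 9.26% lower. Hells, a chromatin remodeller that DNA methylation needs, read 9.20, 8.77 and 8.99 in PNET, against 7.51, 6.71, 7.43 and 7.33 in oligo-astrocytomas, without overlap. It was higher by 1.74 ± 0.23, or 3.34-fold (adjusted p 0.00142), and passed in all 7 fits that left out a tumour. Smug1, a glycosylase that removes uracil and hydroxymethyluracil from DNA, read 7.0, 6.92 and 7.79 in PNET against 5.16, 5.11, 4.97 and 5.13 in oligo-astrocytomas, a difference of 2.14 ± 0.22 (adjusted p 0.000346) that also passed in all 7. Gadd45a and Gadd45b, stress-induced proteins linked to repair and demethylation, were higher by 1.1 ± 0.24 and 1.27 ± 0.35, and passed in 5 and 2 of the 7 fits. Zfp57, which guards methylation at imprinted genes, was lower, at -1.87 ± 0.51 and passed in 3 of 7. For these 3 genes the adjusted p was highest without PNET 3, at 0.0627 for Gadd45a, 0.149 for Gadd45b and 0.152 for Zfp57, and after quantile normalization that of Zfp57 was 0.0535. The list's count of higher genes was 2 without PNET 3 and 3 without PNET 1 or when any 1 of the 3 grafted tumours was left out.

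Of the other Polycomb subunits few passed. Among 11 further PRC2 genes, Rbbp7, a histone-binding subunit shared with other complexes, was the 1 that passed, higher by 1.02 ± 0.24 (adjusted p 0.023, passing in 4 of 7 fits, with 0.0781 without PNET 3). Among 26 genes of PRC1, the complex that ubiquitinates histone H2A, it was Bcor, with 7.52, 8.0 and 7.91 in PNET against 6.90, 6.70, 6.79 and 6.65 in oligo-astrocytomas. Bcor was higher by 1.05 ± 0.18 (adjusted p 0.006) and passed in all 7 fits. Of 10 measured demethylases, deubiquitinases and trithorax genes that oppose Polycomb, 0 passed in limma's fit and 1 had an unadjusted p under 0.05. Those with the largest differences were Dpy30 at 0.79 ± 0.31 (unadjusted p 0.0307) and Usp16 at -0.43 ± 0.23 (unadjusted p 0.092).

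Replication genes were also higher in PNET. In the list of DNA replication and E2F target genes 18 of 41 were higher in PNET and 0 lower, with a median difference of 0.74. Without PNET 3 the count of higher genes was 5, and it was 12 without PNET 1 or without grafted tumour 6. The list averaged 8.11 to 8.50 in PNET and 7.31 to 7.65 in oligo-astrocytomas. Slbp, which binds the stem-loop of histone messenger RNA, was higher by 2.81 ± 0.31, E2f1 by 1.85 ± 0.24 and the licensing factor Cdt1 by 1.76 ± 0.20, each passing in all 7 fits. Ccne2, a cyclin of the entry into S phase, was higher by 2.11 ± 0.56 (adjusted p 0.0387) and passed in 2 of the 7, with 0.137 without PNET 3. In the list of mitosis genes 3 of 27 were higher and 0 lower, with a median of 0.56, and its mean level was 8.30 to 8.57 in PNET and 7.47 to 8.45 in oligo-astrocytomas. The 3 were the kinetochore gene Spc25 at 1.06 ± 0.26, the kinesin Kif23 at 0.99 ± 0.25 and the cytokinesis gene Anln at 0.83 ± 0.23. They passed in 3, 1 and 1 of the 7 fits, and their highest adjusted p was 0.0804 for Spc25 and 0.159 for Anln, both without PNET 3, and 0.0977 for Kif23 without PNET 2. The count of higher mitosis genes was 0 without any 1 PNET or grafted tumour 4, 1 without the AdCre-induced tumour or grafted tumour 6, and 7 without grafted tumour 5. Microglia and macrophage markers averaged 6.04 to 6.83 in PNET and 6.57 to 8.28 in oligo-astrocytomas, and endothelial markers 5.87 to 6.22 in PNET and 6.31 to 6.70 in oligo-astrocytomas. Mature neuron markers, 7 of 14 of them higher and 1 lower, averaged 6.94 to 7.15 in PNET and 5.96 to 6.39 in oligo-astrocytomas. Astrocyte markers, 4 of 8 of them lower and 0 higher, averaged 5.57 to 6.64 in PNET and 8.20 to 8.42 in oligo-astrocytomas. The part of all these levels in the differences of Uhrf1, Dnmt1 and Suz12 was not tested.

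Hox genes are classic targets of PRC2, and 6 of 32 were higher in PNET and 0 lower, while the median of the list was 0.01. All 6 lie side by side in the Hoxc cluster on chromosome 15. Hoxc5 read 7.37, 6.4 and 7.36 in PNET against 3.09, 3.37, 3.01 and 3.52 in oligo-astrocytomas, 3.23 and 3.72 in AdCre spheres and 3.45 in the AdGFP sphere. PNET stood far above all other samples, by 3.8 ± 0.27 over oligo-astrocytomas (adjusted p 4.15e-05). Its values outside PNET, like the oligo-astrocytoma means of Hoxc6 and Slbp, lay under the arrays' lower quartiles (4.38 to 4.43 in oligo-astrocytomas), and whether they are above background is not known here, so these differences may be understated. Hoxc8 was higher by 2.86 ± 0.33, Hoxc6 by 2.59 ± 0.34 and Hoxc4 by 2.21 ± 0.20. Hoxc9, at 2.07 ± 0.25, and Hoxc10, at 1.96 ± 0.30, were the other members of the cluster that passed; both were named after their values were seen. Hoxc12 and Hoxc13, at the far end, overlapped between PNET and oligo-astrocytomas. In gene order on build GRCm38.p6 the next gene after Hoxc4 is Smug1, the glycosylase above, so the genes that were higher in PNET form a run of 7 measured neighbours. The count of higher Hox genes was 6 in each of the 7 fits that left out a tumour.

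**Figure D2:**
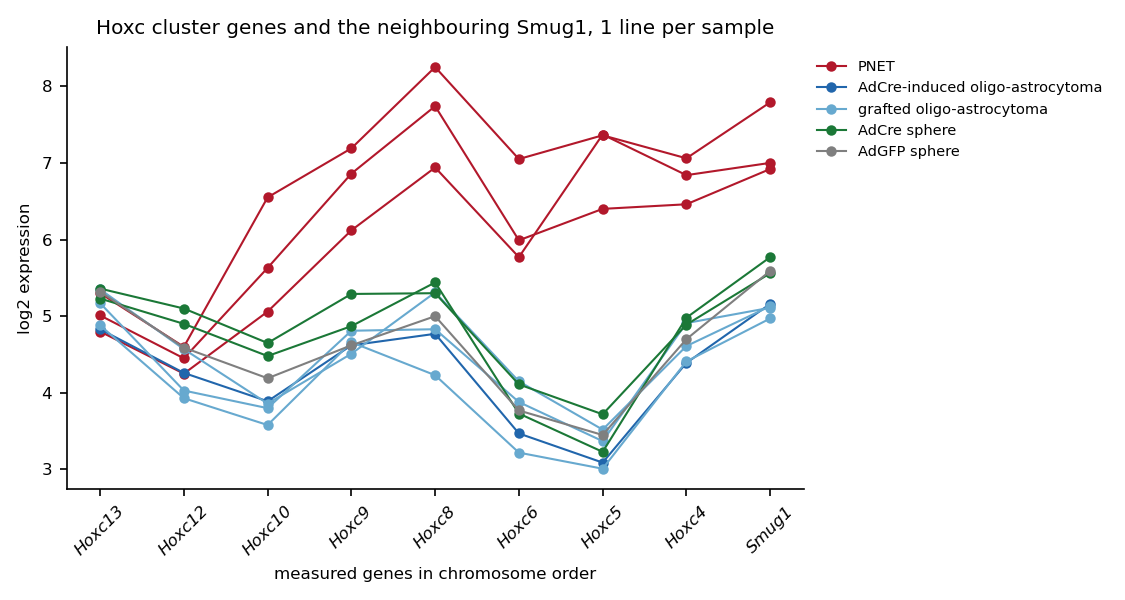
Log2 expression (y axis) of the measured genes of the Hoxc cluster and of the adjacent Smug1 in chromosome order (x axis), 1 line per sample, to be compared between samples and not between genes. From Hoxc10 to Smug1 the 3 PNET lie apart from the other 7 samples, with Hoxc5 at 6.4 to 7.37 against 3.01 to 3.72, and at Hoxc13 and Hoxc12 the lines meet.

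The second comparison sets oligo-astrocytomas against the AdCre spheres, cells of the kind that 3 of the 4 tumours were grafted from. Dnmt3b was higher in oligo-astrocytomas by 0.77 ± 0.19, or 1.71-fold, with means of 6.22 ± 0.19 in tumours (SD, n = 4) and 5.45 ± 0.17 in spheres (SD, n = 2), and an adjusted p of 0.0125. Its sphere level may be background, so the fold is uncertain. Suz12 was lower, at -0.63 ± 0.19, with means of 8.73 ± 0.16 in tumours and 9.36 ± 0.12 in spheres, and an adjusted p of 0.0285. These 2 of 9 genes passed, beside 32.8% of all rows, 10.1% as higher and 22.8% as lower. Quantile normalization moved that split from 2341 higher and 5291 lower rows to 2604 and 2870. Without overlap, 2 genes were higher, Dnmt3b and Ezh2, and 4 lower, Suz12, Uhrf1, Tet3 and Eed, beside 15.6% and 38.4% of all rows.

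Tet3 differed by -0.51 ± 0.20 (adjusted p 0.0715), Uhrf1 by -0.43 ± 0.19 (adjusted p 0.109), Eed by -0.49 ± 0.30, Dnmt1 by -0.20 ± 0.18, Tet2 by 0.28 ± 0.30 and Ezh2 by 0.29 ± 0.23. Dnmt3a differed by -0.41 ± 0.43, and by -0.81 ± 0.17 without grafted tumour 6 (adjusted p 0.0093). That fit too was singled out after the values were seen, and leaving out the highest tumour necessarily lowered the difference. The median of the 9 was -0.41, close to the -0.35 of all named genes. After quantile normalization Dnmt3b was higher by 0.78 and still passed, Ezh2 was higher by 0.80 (adjusted p 0.0313), and Suz12 stood at -0.12 (adjusted p 0.695). Under that scaling Uhrf1 was at 0.05, Tet3 at 0.02 and Eed at 0.03, so their negative signs held only on the scale as deposited and with the arrays centred on their medians.

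Of the 6 fits that left out a sample, Dnmt3b passed in 5, the exception being the fit without AdCre sphere 2 (adjusted p 0.0975). Suz12 passed in 1, the fit without the AdCre-induced tumour, with adjusted p of 0.0572, 0.0548 and 0.0591 without grafted tumours 4, 5 and 6, 0.0844 without AdCre sphere 1 and 0.16 without AdCre sphere 2. Microglia and macrophage markers averaged 6.57 to 8.28 in oligo-astrocytomas against 4.87 and 4.93 in spheres, and endothelial markers 6.31 to 6.70 against 5.10 and 5.12. Their part in the difference of Dnmt3b was not tested.

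Of the 34 methylation partners and readers 1 was higher in oligo-astrocytomas than in AdCre spheres and 15 lower, with a median of -0.65, while over all named genes 3.19% were higher and 28.3% lower. After quantile normalization 3 of the partners were higher and 4 lower, with a median of -0.26. Ogt, the sugar transferase that binds Tet proteins, was higher by 0.84 ± 0.22. Idh1 and Idh2, which make the 2-oxoglutarate that Tet enzymes consume, were lower, at -2.10 ± 0.29 and -1.48 ± 0.41. Idh1 read 7.41, 7.09, 8.0 and 8.07 in oligo-astrocytomas against 9.91 and 9.58 in AdCre spheres. Gadd45b was lower, at -2.08 ± 0.39 and the cytidine deaminase Apobec1 at -1.86 ± 0.39.

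In PRC2, Mtf2, which guides the complex to CpG islands, was higher by 0.82 ± 0.18, while Epop was lower, at -0.65 ± 0.19 and Phf19, another guiding subunit, at -1.50 ± 0.51 with overlapping groups. Of the 26 PRC1 genes 1 was higher and 8 lower. Rnf2, the ubiquitin ligase of PRC1, was lower, at -1.2 ± 0.17, and the transcription factor Mga, a subunit of 1 form of PRC1, was higher by 0.75 ± 0.18. Pcgf5, Yaf2 and Cbx8 were lower, at -1.38 ± 0.41, -1.24 ± 0.30 and -1.11 ± 0.22. Among the 10 opposing genes 3 were lower: Dpy30 at -1.57 ± 0.35, Men1 at -1.13 ± 0.30 and Bap1, the H2A deubiquitinase, at -1.03 ± 0.25. Of the replication genes 13 of 41 were lower and 0 higher, with a median of -0.53, led by Slbp at -2.77 ± 0.35, the thymidine kinase Tk1 at -1.60 ± 0.31, E2f1 at -1.38 ± 0.28 and the polymerase subunit Pold1 at -1.32 ± 0.24. Of the mitosis genes 6 of 27 were lower, led by Hmmr at -1.33 ± 0.34, the kinase Cdk1 at -1.32 ± 0.32, the kinase Aurkb at -1.27 ± 0.23 and Spc25 at -1.25 ± 0.30. Of the Hox genes 8 of 32 were lower, led by Hoxb8 at -1.18 ± 0.27, Hoxd11 at -1.08 ± 0.16, Hoxa10 at -0.94 ± 0.20 and Hoxc12 at -0.81 ± 0.22; the means of Slbp, Hoxb8 and Hoxc12 in oligo-astrocytomas lay under the arrays' lower quartiles. Of the genes named here Idh1, Gadd45b, Rnf2, Hoxd11, Slbp, Tk1, Pold1 and Aurkb passed in all 6 fits that left out a sample. The others passed in 1 to 5, and their highest adjusted p, reached without AdCre sphere 1 or 2, ran from 0.0541 for Cbx8 to 0.194 for Phf19.

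Several of these counts turned with the scaling. After quantile normalization 2 of the 11 further PRC2 genes were higher and 0 lower, of the PRC1 genes 2 were higher and 1 lower, and of the opposing genes 4 were higher and 0 lower. The medians of these 3 lists were then 0.47, 0.19 and 0.50. The replication list had 3 higher and 4 lower, with a median of -0.02, and the mitosis list 0 higher and 1 lower, while 12 Hox genes were lower, with a median of -0.55. Of the genes named here Idh2, Phf19, Epop, Pcgf5, Yaf2, Cbx8, Dpy30, Men1, Bap1, E2f1, Hmmr, Cdk1 and Spc25 kept their sign but did not pass under that scaling, with adjusted p from 0.0526 for E2f1 to 0.406 for Epop.

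The third comparison sets PNET against the same AdCre spheres, so its differences share those 2 samples with the comparison above. Uhrf1 was higher in PNET by 0.58 ± 0.20, or 1.5-fold (adjusted p 0.0465), with means of 10.36 ± 0.26 in PNET and 9.78 ± 0.16 in AdCre spheres. Dnmt3b was higher by 0.56 ± 0.20, or 1.48-fold (adjusted p 0.0487), with means of 6.01 ± 0.13 in PNET and 5.45 ± 0.17 in AdCre spheres. Here too the sphere level of Dnmt3b may be background, so the fold is uncertain. These 2 of 9 genes passed, beside 37.0% of all rows, 11.0% as higher and 25.9% as lower. Quantile normalization moved that split from 2564 higher and 6026 lower rows to 3267 and 3433. Both were near the threshold: in the 5 fits that left out a sample, Dnmt3b passed in 0, with adjusted p from 0.0575 without PNET 3 to 0.235 without AdCre sphere 2. Uhrf1 passed in 1, the fit without PNET 3, and otherwise had adjusted p from 0.0829 without AdCre sphere 2 to 0.236 without AdCre sphere 1, with 0.112 without PNET 1 and 0.11 without PNET 2.

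Ezh2 differed by 0.60 ± 0.25 (adjusted p 0.0878), Tet2 by 0.50 ± 0.32, Dnmt1 by 0.36 ± 0.19, Eed by 0.36 ± 0.31, Suz12 by 0.26 ± 0.20, Dnmt3a by 0.20 ± 0.45 and Tet3 by -0.25 ± 0.21. Of the 9 genes 6 were higher in every PNET than in both AdCre spheres, and 0 lower in every PNET, beside 19.8% and 41.6% of all rows, and the median was 0.36 beside -0.36 over all named genes. After quantile normalization 6 genes passed, all higher: Ezh2 by 1.2, Tet2 by 1.12, Uhrf1 by 1.11, Dnmt1 by 0.95, Suz12 by 0.85 and Dnmt3b by 0.62, while Tet3 stood at 0.38. How many of these genes were above the spheres thus depended on whether the wider sphere arrays were rescaled.

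**Figure D3:**
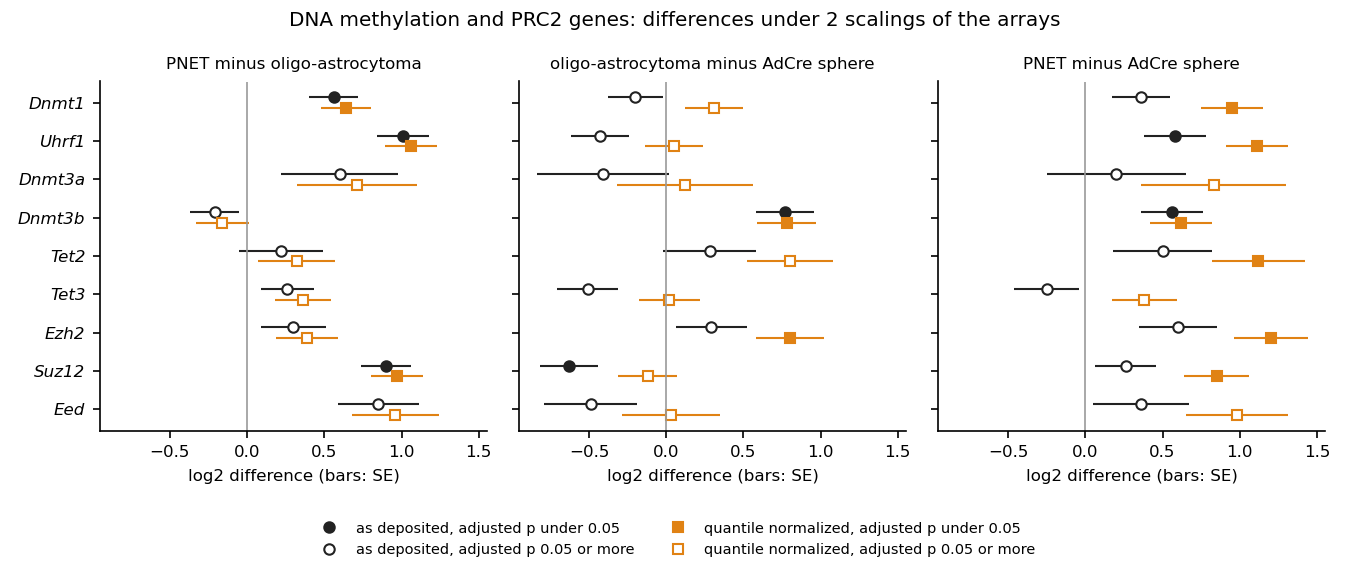
Log2 differences (x axis, bars are SE) of the 9 genes in the 3 main comparisons, on the values as deposited (circles) and after quantile normalization (squares), filled where the adjusted p was under 0.05. For PNET against oligo-astrocytoma both scalings give nearly the same picture, with Uhrf1 at 1.01 and 1.06, whereas against AdCre spheres the quantile values lie to the right of the deposited ones, least so for Dnmt3b.

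Among the surrounding genes, 3 of the 34 methylation partners were higher in PNET than in AdCre spheres and 10 lower, while over all named genes 5.43% were higher and 32.2% lower. Smug1 was higher by 1.57 ± 0.26, Hells by 1.25 ± 0.28 and Ogt by 1.04 ± 0.24, and Apobec1, Idh1, Apobec3 and Idh2 were lower, at -2.41 ± 0.42, -2.38 ± 0.30, -1.99 ± 0.69 and -1.53 ± 0.43. Mtf2 was higher by 0.63 ± 0.19 and Epop lower, at -0.63 ± 0.20. Of the PRC1 genes 3 were higher, Scmh1 by 1.06 ± 0.26, Bcor by 0.95 ± 0.22 and Mga by 0.91 ± 0.19, and 7 lower, with Yaf2 at -1.82 ± 0.31, Rnf2 at -1.40 ± 0.18, Cbx8 at -1.35 ± 0.23 and Bcorl1 at -1.01 ± 0.29. Men1, at -1.18 ± 0.31, and Bap1, at -0.88 ± 0.26, were lower. The Hox list split into 7 higher and 8 lower: Hoxc5 was higher by 3.57 ± 0.32, Hoxc6 by 2.34 ± 0.40, Hoxc8 by 2.27 ± 0.40 and Hoxc4 by 1.85 ± 0.24, and Hoxd11, Hoxa10, Hoxb8 and Hoxb2 were lower, at -1.22 ± 0.17, -1.18 ± 0.21, -0.99 ± 0.29 and -0.92 ± 0.25. The sphere means of Hoxc5 and Hoxc6 and the PNET means of Hoxb8 and Hoxb2 lay under the arrays' lower quartiles. Of the replication genes 5 of 41 were higher and 3 lower, with a median of 0.25. Ccne2 was higher by 1.99 ± 0.67, Clspn by 1.44 ± 0.34, the thymidylate synthase Tyms by 1.42 ± 0.25 and Cdc6, which loads the replicative helicase, by 1.32 ± 0.23, and Tk1, Pold1 and Rfc3 were lower, at -1.01 ± 0.33, -0.92 ± 0.26 and -0.65 ± 0.20. Of the mitosis genes 1 of 27 was higher, the proliferation marker Mki67 by 1.13 ± 0.39, and 2 were lower, Aurkb at -0.93 ± 0.25 and Nuf2 at -0.88 ± 0.27. Of the genes named here Smug1, Ogt, Apobec1, Idh1, Mga, Yaf2, Rnf2, Cbx8, Hoxc5, Hoxc6, Hoxc8, Hoxc4, Hoxd11, Hoxa10, Tyms and Cdc6 passed in all 5 fits that left out a sample. The others passed in 0 to 4, and their highest adjusted p, reached without AdCre sphere 1 or 2, ran from 0.0664 for Hells to 0.305 for Tk1.

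Against the spheres these counts too turned with the scaling. After quantile normalization the replication list had 23 genes higher and 0 lower, with a median of 0.84, and the mitosis list 4 higher and 0 lower. Of the methylation partners 5 were higher and 4 lower, of the PRC2 genes 6 and 0, of the PRC1 genes 7 and 3, of the opposing genes 2 and 0, and of the Hox genes 6 and 11. Apobec3, Idh2, Epop, Bcorl1, Men1, Bap1, Tk1, Pold1, Rfc3, Aurkb and Nuf2 kept their sign but did not pass under that scaling, with adjusted p from 0.113 for Apobec3 to 0.932 for Rfc3. Markers of other cell types differed as well on the deposited scale. Microglia and macrophage markers, 7 of 16 of them higher and 0 lower, averaged 6.04 to 6.83 in PNET against 4.87 and 4.93 in AdCre spheres, and endothelial markers, 4 of 12 higher and 0 lower, 5.87 to 6.22 in PNET against 5.10 and 5.12 in AdCre spheres. Astrocyte markers, 7 of 8 of them lower and 0 higher, averaged 5.57 to 6.64 in PNET against 8.77 and 10.26 in AdCre spheres. The part of these levels in the differences of Uhrf1 and Dnmt3b was not tested.

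Many germline genes are kept silent in somatic cells by promoter methylation. Of 31 measured, 0 passed between PNET and oligo-astrocytoma in limma's fit and 4 had an unadjusted p under 0.05, with the largest differences in Stag3, at 2.06 ± 0.68 (unadjusted p 0.0142), and Syce2, at 1.5 ± 0.49. The list averaged 3.64 to 3.8 in PNET, 3.53 to 3.67 in oligo-astrocytomas, 3.84 and 3.90 in AdCre spheres and 3.59 in the AdGFP sphere. Stag3, a meiotic cohesin subunit, was higher in PNET than in AdCre spheres by 2.42 ± 0.82 (adjusted p 0.0438), with 7.5, 7.98 and 10.06 in PNET against 5.87 and 6.32 in AdCre spheres, and passed in 1 of the 5 fits that left out a sample, with 0.186 without AdCre sphere 1. Ddx4, a germ cell helicase, was lower in both tumour types than in AdCre spheres, at -1.17 ± 0.25 in PNET and -1.11 ± 0.24 in oligo-astrocytomas, and Brdt was lower in PNET, at -0.69 ± 0.18. The tumour means of both lay under the arrays' lower quartiles. In AdCre spheres Ddx4 read 4.63 and 4.08 and Brdt 4.32 and 4.43, beside lower quartiles of 4.22 and 4.28. The list's averages also lay under the lower quartiles in every group. Whether Ddx4 and Brdt are above background in tumours or spheres is not known here. Without AdCre sphere 1 the adjusted p of Ddx4 was 0.0627 in PNET and 0.0809 in oligo-astrocytomas, and without AdCre sphere 2 that of Brdt was 0.0802.

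The fourth comparison is between cultures with and without Cre. AdCre spheres and the AdGFP sphere differed in 0 of the 9 genes by limma's test, and 0 had an unadjusted p under 0.05, beside 0.0172% of all rows past the adjusted threshold. Ezh2 read 9.31 and 9.34 in AdCre spheres against 8.92 in the AdGFP sphere, a difference of 0.40 ± 0.33 with a 95% interval of -0.34 to 1.15. Suz12 differed by 0.35 ± 0.26 (-0.25 to 0.94), Dnmt3b by 0.25 ± 0.26, Eed by 0.17 ± 0.42 and Tet2 by 0.15 ± 0.43. Dnmt3a at 0.08, Uhrf1 at 0.06, Dnmt1 at 0.02 and Tet3 at 0.00 were nearer to 0, and Dnmt1 with an interval of -0.55 to 0.59. The single AdGFP sphere was taken to vary like the other groups. None of the genes in the lists passed either in limma's fit. Among methylation partners Gadd45b differed most, by 1.46 ± 0.55, and among PRC1 genes Pcgf5, by 0.84, followed by Rnf2 at 0.64 ± 0.25. Among germline genes Dppa5a differed most, by 1.86, with 4.21 and 4.46 in AdCre spheres against 2.47 in the AdGFP sphere. That last value lay under its array's lower quartile (4.25), and the 4.21 lay under the lower quartiles of the AdCre arrays (4.22 and 4.28).

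The last comparison is within oligo-astrocytomas, between the AdCre-induced tumour and the 3 grafted ones. Again 0 of 9 genes passed in limma's fit and 0 had an unadjusted p under 0.05, beside 0.301% of all rows. Eed differed by -0.65 ± 0.35, with 6.84 in the induced tumour against 7.26, 7.69 and 7.52 in the grafted ones, and Tet2 by 0.47 ± 0.40. Dnmt3a differed by -0.55 ± 0.57, and by -0.01 ± 0.24 without grafted tumour 6. Among the surrounding genes Phf19, which helps PRC2 reach its targets, was the 1 that passed: it read 7.90 in the induced tumour against 5.95, 6.12 and 5.90 in the grafted ones, a difference of 1.92 ± 0.26 (adjusted p 0.0271). It passed in 0 of the 3 fits that left out a grafted tumour, with 0.098 without tumour 6. Microglia and macrophage markers had positive differences in 16 of 16 genes, with a median of 1.43, though 0 passed in limma's fit and 12 had an unadjusted p under 0.05. Their part in the difference of Phf19 was not tested.

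The high Dnmt3a of grafted tumour 6 was shared by most of the 20 measured genes after it on its chromosome, but not by the 4 before it. Along chromosome 12, in the gene order of GRCm38.p6, each gene's value in a tumour was set against the median of the other 3 oligo-astrocytomas, over genes with a mean of at least 5, and centred on 0 per tumour. Dnmt3a stood 1.67 above in tumour 6. The 4 measured genes before it were below 0, with a median of -0.73, and of the 20 after it 19 were above 0, with a median of 0.98, and 18 exceeded all 3 other oligo-astrocytomas. With up to 10 genes taken on each side, 9 of its 14 neighbours were above 0, and Pomc, right after it, stood at -0.77. A stretch was run from Dnmt3a for as long as a running median of 11 genes stayed above 0, a rule that favours a positive median and a high share. It ended at Cbll1, which itself stood at -0.61. The stretch held 61 genes with a median of 0.95, of which 72.1% exceeded all other oligo-astrocytomas, beside 23.8% over all chromosomes. The 302 genes after it had a median of -0.48, and 218 of them (72.2%) were below all other oligo-astrocytomas, beside 29.7% over all chromosomes. The stretch was picked out after its values were seen and rests on 1 tumour, and DNA was not measured.

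**Figure D4:**
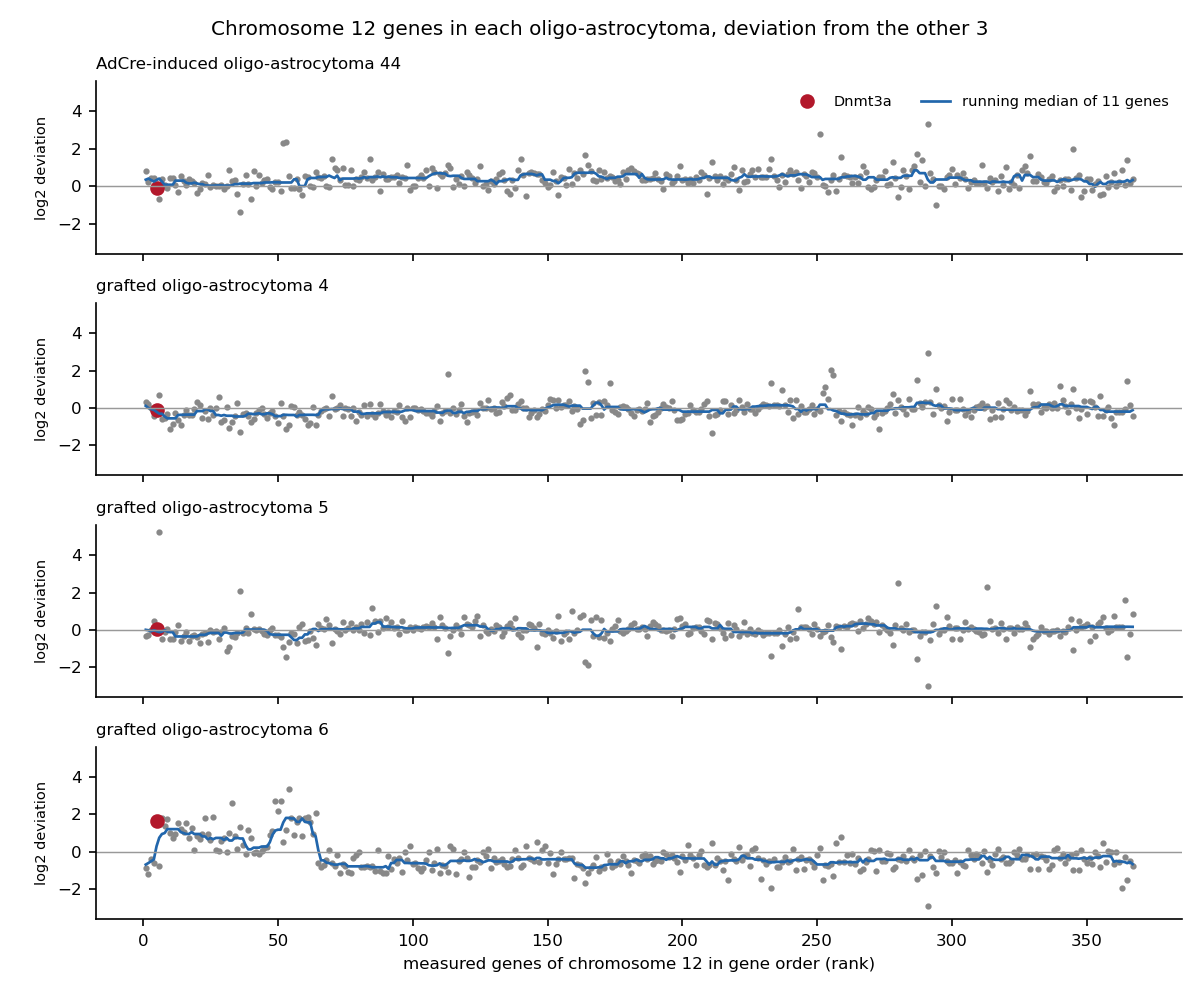
Log2 deviation (y axis) of each measured chromosome 12 gene from the median of the other 3 oligo-astrocytomas, in gene order (x axis, rank), in each oligo-astrocytoma, with Dnmt3a in red and a running median of 11 genes as a line. In grafted tumour 6 the line steps up at Dnmt3a, runs above 0 for 61 genes with a median of 0.95 and drops to about -0.48, and the other 3 tumours show no such step.

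The same measure was taken for the other genes with up to 20 neighbours, 10 on each side. Uhrf1 on chromosome 17 stood 0.25 above the other PNET in PNET 1, where its neighbours had a median of 0.56 and 17 of 20 were above 0, and -0.50 in PNET 3, where they had a median of -0.54 and 1 of 20 was above 0. In PNET 2 it stood as high, at 0.25, with a neighbour median of 0.03. The median over the whole of chromosome 17 was 0.39 in PNET 1, 0.03 in PNET 2 and -0.41 in PNET 3, so the shift was not limited to the neighbours. Eed on chromosome 7 stood at -0.79 in PNET 1 and at -0.69 in the AdCre-induced oligo-astrocytoma, with neighbour medians of -0.38 and -0.32 and 4 of 20 above 0 in each. Those samples were the lowest of their groups for Eed, and the medians over the whole of chromosome 7 were -0.32 in PNET 1 and -0.11 in the AdCre-induced tumour. With all samples the difference of Eed between PNET and oligo-astrocytoma was 0.85 and did not pass (adjusted p 0.0672, limma). Leaving out PNET 1, the lowest PNET for Eed, necessarily raised it, to 1.09, which passed (adjusted p 0.0293). That fit was singled out after the values were seen. Tet2 in grafted tumour 4, by contrast, stood at -0.89 while its neighbours had a median of -0.01. The neighbours of Suz12 stayed between -0.13 and 0.13 in all 7 tumours.

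**Figure D5:**
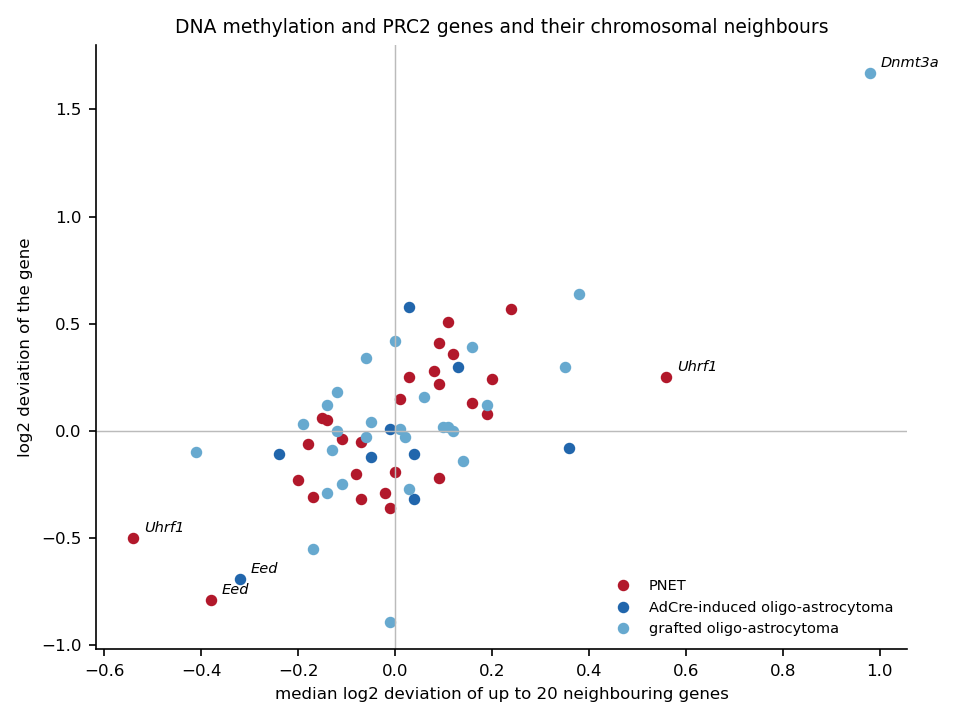
Log2 deviation of each gene from the other tumours of its type (y axis) against the median deviation of up to 20 neighbouring genes on its chromosome (x axis), 1 point per gene and tumour. Dnmt3a in grafted tumour 6, at 1.67 with a neighbour median of 0.98, lies far from the rest. Of the other points, Uhrf1 lies farthest along the x axis, at 0.56 in PNET 1 and -0.54 in PNET 3, and Tet2 has the widest range on the y axis, with -0.89 in grafted tumour 4 and 0.64 in grafted tumour 5.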

How the data were processed

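RNA from 10 mouse samples was hybridised to Affymetrix mouse exon arrays, of which the series' text names 2 versions. Each row and sample has 1 deposited log2 value, and Partek, RMA and genome build mm8 are named per the submitters' processing notes; RMA corrects background, normalizes between arrays and summarizes probes, and further settings are not stated in the labels. Values were used as deposited, with no filter or pseudocount. A probe annotation names 1 gene for 14939 rows, several for 989 and none for 7310; for 131 genes with several rows, the row with the highest mean was used.

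Linear models were fitted with limma 3.58.1 in R 4.3.3 (lmFit and eBayes) to all 10 samples in 4 groups, or 5 for the comparison within oligo-astrocytomas, with two-sided tests, Benjamini-Hochberg adjustment over all 23238 rows and a threshold of 0.05. Groups of 1 sample were assumed to vary like the others. Their number limits the precision. Whether sample numbers pair PNET with AdCre spheres is not known here. Deviations of same-numbered samples from their group means correlated at -0.0329 and -0.0579 across rows. With 2 AdCre spheres, the deviations of each mirror those of the other, so these values cannot decide it.

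The genes, the lists and the tests were chosen with earlier results of these data known. From each list, up to 4 genes past the threshold in each direction were named by size of difference, or the 2 largest where none passed; in the last 2 comparisons, and for the marker lists, only some of these are given. Gene order and promoter windows came from RefSeq on GRCm38.p6, which is not the build of the arrays. Alternatives were quantile normalization, centring on the array median, a filter on dim rows, rows with 1 gene only, trended and robust moderation, array weights, compared groups only, other groupings of spheres and oligo-astrocytomas, the sample number as a block, and each sample left out in turn.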

Additional observations from a re-analysis of the deposited data

Results flagged for a closer look

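Among the 4 oligo-astrocytomas, Dnmt3a in grafted tumour 6, at 9.50, stood apart from the other 3, which lay between 7.81 and 7.93; the gap was 0.93 of the group's whole range. Dnmt1 in grafted tumour 4, at 8.92, stood apart below the other 3, which lay between 9.20 and 9.24, with a gap of 0.86 of the range. The 2 were found among 9 genes tested, and chance flags about 1 in 20 such groups. Without tumour 6, the difference of Dnmt3a between PNET and oligo-astrocytoma was 1.01 (adjusted p 0.0047, limma), and without tumour 4, that of Dnmt1 was 0.48 (adjusted p 0.11, limma). These fits were singled out after the values were seen, so they are no independent tests.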

How the results depend on the processing

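Of 585 alternative values for single genes, 520 kept their direction and their side of the threshold, 37 lost a call, 13 gained one and 15 changed sign, 7 of these with quantile normalization; the cause was not tested except where a setting leaves out samples or rows. With quantile normalization, oligo-astrocytoma minus AdCre sphere gave 0.31 for Dnmt1, 0.12 for Dnmt3a, 0.05 for Uhrf1, 0.02 for Tet3 and 0.03 for Eed, PNET minus AdCre sphere 0.38 for Tet3 and 6 genes past the threshold, and AdCre minus AdGFP sphere -0.06 for Dnmt1 and 0 rows. Other changed signs were small: Tet2 between PNET and the AdCre-induced oligo-astrocytoma, -0.13; between AdCre and AdGFP spheres, Dnmt1 at -0.05 and Uhrf1 at -0.01 with centred arrays. With 1 sphere left out, Dnmt1 ranged from -0.12 to 0.17, Uhrf1 from -0.05 to 0.18 and Tet2 from -0.04 to 0.34; with 1 grafted tumour left out of the comparison within oligo-astrocytomas, Dnmt1 ranged from -0.01 to 0.15 and Dnmt3b from -0.16 to 0.06.

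With only the AdCre-induced oligo-astrocytoma, 0 of the 9 genes passed against PNET (1182 rows, against 2960) and 0 against AdCre spheres (3433 rows, against 7632). Oligo-astrocytoma minus AdCre sphere gave 1 gene with centred arrays and 4948 rows among rows with 1 gene. PNET minus AdCre sphere gave 1 gene with trended and robust moderation, 1 with array weights and 0 with the compared groups only. The replicate block, run where groups share at least 2 numbers, gave 0 genes (adjusted p 0.135 for Uhrf1 and 0.166 for Dnmt3b) and 4295 rows against 8590 without it. Whether the numbers pair the samples is not known here. AdCre minus AdGFP sphere gave 4 rows, 1 among rows with 1 gene, 0 with trended and robust moderation and 0 with the compared groups only, and the comparison within oligo-astrocytomas 70 rows, or 0 with the compared groups only.

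Leaving out 1 sample at a time gave 2 to 3 genes and 1772 to 2781 rows for PNET minus oligo-astrocytoma, 0 to 2 and 3950 to 7234 for oligo-astrocytoma minus AdCre sphere, 0 to 1 and 5233 to 8088 for PNET minus AdCre sphere, 0 and 0 for AdCre minus AdGFP sphere, and 0 and 28 to 75 within oligo-astrocytomas. The single AdGFP and AdCre-induced samples cannot be left out of their own comparisons, and no gene of the 9 had a second row to try.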
